A study of Rattus norvegicus with 3 samples.

Results

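The etanercept library and the saline library, both from adult rat liver taken 32 hours after partial hepatectomy, were compared gene by gene over every gene identifier in the deposited count tables. They are 2 of the 3 libraries of the series. The third came from healthy, untreated adult livers, and its values are given beside the others as a reference level. The etanercept animals received 9 mg/kg in 1 ml, 16 to 18 hours before the operation. The saline animals were pretreated with 1 ml of saline as vehicle; whether at the same interval is not clear from the series text. Before sequencing, RNA from the 3 rats of a group was combined. Each group is therefore 1 library, the spread between animals is not visible, and no p-value was computed. The strain and sex of the animals were not given in the sources used here. Intervals below are 95% counting intervals and do not cover differences among animals or library preparations.

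Partial hepatectomy removes part of the liver, and the hepatocytes that remain leave their resting state and divide until the mass of the organ is restored. Tumour necrosis factor (TNF) is among the first signals of this process. It acts on resident macrophages through its receptors and the transcription factor NF-kB, and the interleukin-6 released from them activates STAT3 in hepatocytes. Etanercept is a soluble fusion of the TNF-binding part of a TNF receptor with an antibody Fc part, and it captures TNF before TNF reaches its receptors. The series title places the comparison in this setting, the regulation of regrowth by interference with inflammation that TNF mediates.

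The count tables give Ensembl rat gene identifiers and no names. None of the 26404 identifiers matched the reference gene table (0 matches), so TNF targets, acute phase genes, cell cycle genes and the markers of liver cell types could not be located. The liver label was not checked against markers for the same reason. Single genes are therefore described by identifier, and the rest by groups defined by fold, by level and by the level in healthy liver. No sequence or position is given for them.

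The libraries held 2645152 gene reads for saline and 3639886 for etanercept. Of the uniquely aligned reads, the counting assigned 77.4% to no gene for etanercept, 21.7% for saline and 19.9% for healthy liver. With the counting settings unknown, such a read need not lie outside every gene. For every 100 reads assigned to no gene there were 26.9 gene reads in the etanercept library and 357 in the saline library. This difference accompanies every comparison below, and its part in them was not tested. The sources used here state neither the annotation nor the strand setting used in counting either library, so whether both were counted alike is not known, and every etanercept to saline fold carries that limit. Levels are CPM, the counts of a gene per 1000000 gene reads after scaling by the trimmed mean of M-values (TMM), which assumes that most genes do not differ. A level of 20 CPM is 64.7 counts in the saline and 66.4 counts in the etanercept library. CPM is not corrected for gene length, so it ranks genes by their share of reads and not by molecules.

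The 2 genes that stood highest in the etanercept library relative to counting error were close to the detection limit or at a low level in both other libraries. They were ranked, among genes with at least 20 CPM in the higher library, by the bound of the counting interval nearest to no change. The first, ENSRNOG00000045015, had 50 counts in healthy, 16 counts in saline and 20930 counts in etanercept liver. These are levels of 9.31, 4.94 and 6303 CPM. By share of reads it moved from position 9172 among all identifiers in the saline library to position 17 in the etanercept library. Its etanercept to saline ratio was 1237, with an interval of 785 to 2231.

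The second, ENSRNOG00000019914, had 3 counts in healthy, 2 counts in saline and 2274 counts in etanercept liver, which is 0.559, 0.618 and 685 CPM. The intervals of the healthy level (0.115 to 1.63 CPM) and the saline level (0.0749 to 2.23 CPM) overlap, and that of the etanercept level (657 to 714 CPM) lies far above both. The ratio of etanercept to saline was 889. Because the saline library had 2 counts, its interval is wide, from 306 to 9155.

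The 2 genes that stood lowest were well expressed in both other libraries and had 8 counts each in the etanercept library. ENSRNOG00000045589 had 911 counts in healthy, 727 counts in saline and 8 counts in etanercept liver, or 170, 225 and 2.41 CPM. It was 87.8-fold lower in the etanercept library than in the saline library (interval 47.1 to 217). ENSRNOG00000050614 had 435 counts in healthy, 478 counts in saline and 8 counts in etanercept liver, or 81.0, 148 and 2.41 CPM. It was 57.7-fold lower (interval 30.9 to 143). For both genes the saline level was above the healthy level, by 1.32-fold (1.20 to 1.46) and 1.82-fold (1.60 to 2.08), while the etanercept level lay far below either.

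**Figure D1:**
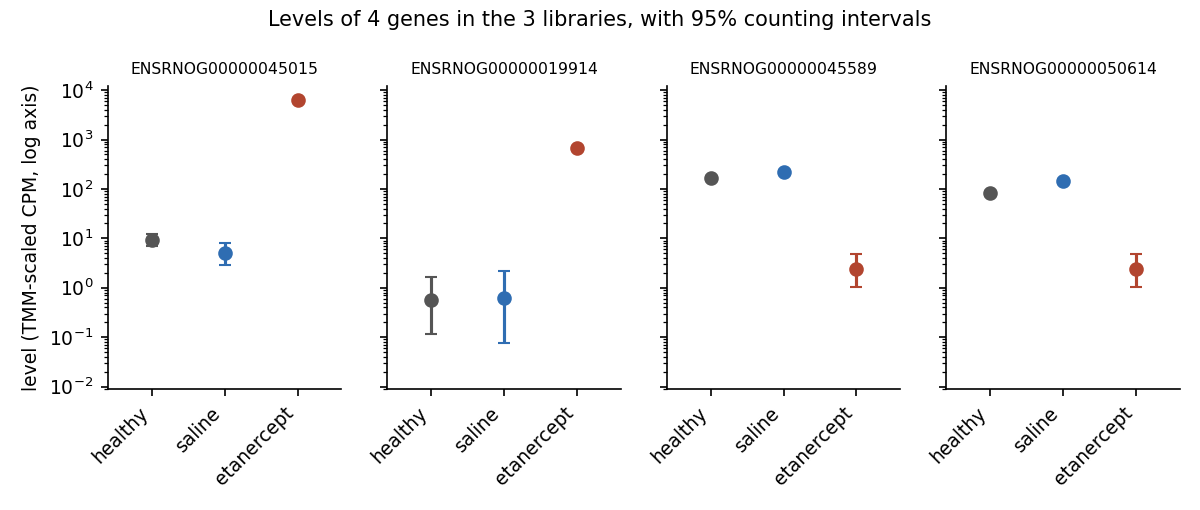
Level of the 4 genes ranked first by counting bound in each of the 3 libraries, in TMM-scaled CPM on a log axis. Points are single pooled libraries and bars are 95% Poisson counting intervals; ENSRNOG00000045015 and ENSRNOG00000019914 reach 6303 and 685 CPM in the etanercept library, and ENSRNOG00000045589 and ENSRNOG00000050614 stand at 2.41 CPM there.

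Behind these genes the bounds with TMM were larger on the higher side than on the lower side, and this depended on the scaling. Among genes with at least 20 CPM in the higher library, TMM gave 270 higher and 90 lower genes with a bound of at least 4-fold. Total gene reads scaling gave 188 and 210. The values that follow are those with TMM. The counting bound of the tenth gene was 75.9-fold on the higher side and 11.9-fold on the lower side. At the fiftieth gene it was 16.5-fold and 5.11-fold, and at the hundredth 9.01-fold and 3.86-fold. The first 100 genes on the higher side had median levels of 17.4 CPM in healthy, 12.5 CPM in saline and 462 CPM in etanercept liver. Of these 100, 77 reached 100 CPM and 30 reached 1000 CPM in the etanercept library. The first 100 on the lower side had medians of 43.7, 43.1 and 4.82 CPM, and 1 of them reached 1000 CPM in the saline library. The ranking chose these genes on their saline and etanercept values, so the contrast of those medians describes the choice; the healthy level played no part in it.

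A small number of genes were abundant in one library and without reads in the other. In all, 6 genes had at least 20 CPM in the etanercept library and no read in the saline library. Their etanercept levels ran from 21.1 to 99.7 CPM, and their healthy levels from 0 to 0.372 CPM. Against the 3 counts that a count of 0 allows in the saline library (0.927 CPM), their measured levels stood 22.7-fold to 108-fold higher. In the other direction, 4 genes had at least 20 CPM in the saline library and no read in the etanercept library. They lay between 20.4 and 31.2 CPM in saline liver and between 6.70 and 19.7 CPM in healthy liver. Against the limit in the etanercept library (0.904 CPM) their measured saline levels stood 22.6-fold to 34.5-fold higher. The ratios in both directions leave out the counting error of the measured level, so they are not bounds of the counting intervals. The genes without saline reads were thus at or near 0 in healthy liver, whereas all 4 genes without etanercept reads had at least 5 CPM there.

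Detection of genes at any level was lower in the etanercept library. Of the 15571 identifiers with at least 1 read in either library, 12096 had a read in both. A further 2535 were seen in the saline library alone and 940 in the etanercept library alone. The etanercept library had more gene reads in total. Most of these are at the limit of detection, with a median of 2.00 saline counts in the first group and 1.00 etanercept counts in the second. The highest reached 101 saline counts and 331 etanercept counts.

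Across all genes the difference between these libraries was broad. Of 9991 genes with at least 5 CPM in the higher library, 3742 differed at least 2-fold (37.5%), with 1827 higher (18.3%) and 1915 lower (19.2%) in the etanercept library. The counting interval excluded no change for 1795 of the higher and 1888 of the lower genes. For 949 higher genes (9.50% of those tested) and 939 lower genes (9.40%) the whole interval lay beyond 2-fold. Few of the 2-fold calls thus had an interval that reached no change, and about as many intervals reached below 2-fold as did not.

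At 8-fold or more there were 263 higher genes (2.63%) and 283 lower genes (2.83%), and at 16-fold or more 119 higher (1.19%) and 146 lower (1.46%). The 2 sides differed in level. Genes at least 16-fold higher had medians of 2.05 CPM in healthy, 0.927 CPM in saline and 42.5 CPM in etanercept liver, and 22 of them reached 1000 CPM in the etanercept library. Genes at least 16-fold lower had medians of 7.07 CPM in healthy and 8.65 CPM in saline liver, a median of 0 CPM in etanercept liver, and 0 of them reached 1000 CPM in the saline library.

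**Figure D2:**
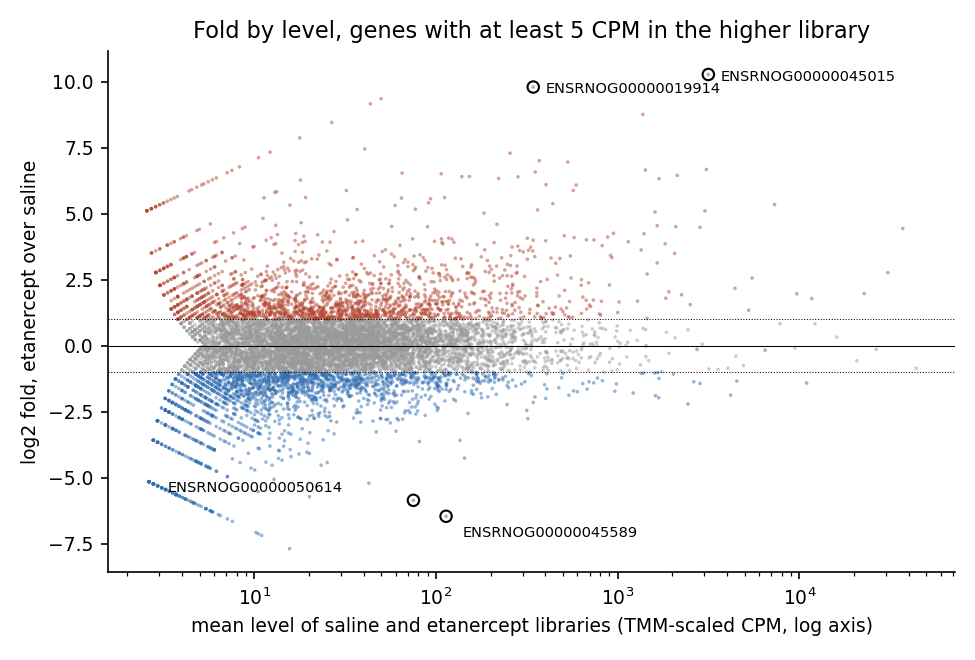
Log2 fold of etanercept over saline for 9991 genes against the mean of their saline and etanercept levels (TMM-scaled CPM, log axis). Each point is a gene, red and blue points lie beyond the dotted lines at 2-fold (1827 higher, 1915 lower), and rings mark the 4 genes named; the points that spread furthest upward include genes above 1000 CPM, while most of the lowest points lie at low levels.

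From 20 CPM upward the spread of folds did not narrow with level, although counting error did. Genes were grouped by the mean of their saline and etanercept levels. Among the 4000 genes between 20 and 100 CPM log2 folds ran from -0.53 at the lower quartile to 0.69 at the upper quartile, and the counting interval of a typical gene reached 1.31-fold to either side. Of the 1220 genes between 100 and 1000 CPM, with a typical counting error of 1.14-fold, 23.7% were called higher and 11.4% lower. Of the 87 genes of at least 1000 CPM, with a typical counting error of 1.04-fold, 35 were called higher and 15 lower, and the quartiles lay at -0.70 and 2.37. Level here was set by the 2 compared libraries, so a gene could count as abundant through the library where it stood higher. By healthy level, 10.6% of genes were higher and 17.1% lower with TMM between 100 and 1000 CPM, and 9.82% and 25.9% above. For genes abundant in the compared libraries, the excess of higher over lower calls was seen with TMM, upper-quartile scaling and median-of-ratios size factors. Among genes of at least 100 CPM in the higher library, TMM gave 461 higher (27.6% of those tested) and 236 lower (14.1%). Upper-quartile scaling gave 428 (26.0%) and 264 (16.0%), and median-of-ratios factors 471 (27.9%) and 223 (13.2%). At this level the excess turned round when libraries were scaled by total gene reads, with 307 higher (17.1%) and 510 lower (28.5%). At 1000 CPM or more in the higher library it shrank without turning, from 59 higher and 22 lower with TMM to 45 and 40 with total gene reads.

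For comparison, the folds between saline and healthy liver were spread less widely. Among genes with at least 20 CPM in the higher library, log2 folds of etanercept over saline (6114 genes) ran from -1.70 at the 5th to 2.30 at the 95th percentile, and those of saline over healthy (5746 genes) from -1.33 to 1.16. Levels within 1.5-fold of each other were found for 42.4% and 63.1% of these genes. Both comparisons use the saline library, and with 1 library per group the difference between the spreads could not be tested.

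Reads moved towards a limited set of genes in the etanercept library. To turn the saline distribution of gene reads into that of the etanercept library, 37.1% of reads would have to be assigned to another gene. This measure needs no scaling. The corresponding values are 19.7% between healthy and saline and 43.6% between healthy and etanercept liver. The 10 genes that gained most accounted for 47.6% of the gain. Together they took 3.82% of gene reads in healthy, 3.88% in saline and 21.5% in etanercept liver. The loss was more evenly spread, since the 10 genes that lost most made up 29.1% of it and went from 22.9% in healthy and 19.3% in saline to 8.45% in etanercept liver. A share can fall because other genes gain, and 10392 identifiers lost share while 5179 gained it. These numbers have no level limit and include genes at the limit of detection. Among the losing identifiers 2535 had no etanercept read, with a median of 2.00 saline counts. Among the gaining ones 940 had no saline read, with a median of 1.00 etanercept counts.

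Grouped by fold, the 119 genes at least 16-fold higher took 0.677% of saline gene reads and 14.4% of etanercept gene reads. The 505 genes between 4-fold and 16-fold higher went from 2.77% to 14.0%, and the 1203 genes between 2-fold and 4-fold higher from 7.79% to 17.4%. In healthy liver these groups took 0.818%, 2.34% and 7.02%, close to their saline shares. On the lower side, the 1258 genes between 2-fold and 4-fold lower took 16.5% of saline and 4.69% of etanercept reads, and the 511 genes between 4-fold and 16-fold lower 2.39% and 0.325%. Genes with less than a 2-fold difference took 68.8% of saline reads and 48.7% of etanercept reads. The groups were formed on the etanercept to saline fold. The direction of the shift in the higher and lower groups therefore follows from the sorting, in which the healthy level played no part.

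**Figure D3:**
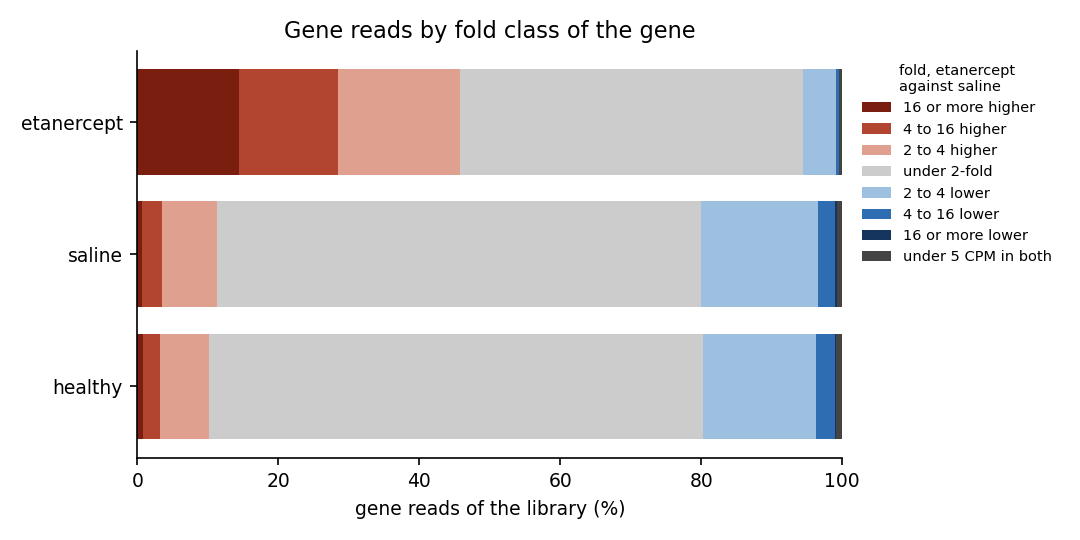
Share of gene reads (%) taken in each library by genes grouped by their etanercept to saline fold. Each bar is 1 pooled library. The 3 red groups are at least 2-fold higher in the etanercept library. They cover 45.8% of its gene reads against 11.2% for saline and 10.2% for healthy liver. Grouping used the same fold, so the direction of the saline to etanercept contrast follows from it.

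The genes with the most reads were partly the same in both hepatectomy libraries. Of the 10 leading genes of each library 7 were shared, which is 70.0% of each list, and of the 100 leading genes 58 were shared, 58.0% of each. The leading gene of the saline library had 183109 counts there and 104342 in the etanercept library, where it ranked at position 4. It was 1.80-fold lower (interval 1.79 to 1.81). The leading gene of the etanercept library had 235323 counts there and 10554 counts in the saline library, at position 25, and was 21.7-fold higher (21.3 to 22.2). Its healthy level was 4582 CPM, against 3262 CPM in saline and 70872 CPM in etanercept liver.

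With TMM scaling, more genes reached high levels in the etanercept library. A level of at least 1000 CPM was reached by 110 genes in the etanercept and 72 genes in the saline library, 52 of them in both. Of the 110, 16 were under 100 CPM in the saline library, and 10 of these were under 100 CPM in healthy liver as well. Of the 72, 0 were under 100 CPM in the etanercept library, where the lowest stood at 329 CPM. Total gene reads scaling brought the numbers at 1000 CPM to 91 for etanercept and 88 for saline, with 9 and 0 genes under 100 CPM in the other library. Scaling by all uniquely aligned reads turned them to 23 and 68, with 2 and 4 such genes. With 1 pooled sample a side, more RNA per cell and more cells of a kind that holds the RNA cannot be told apart.

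The level in healthy liver does not enter the fold between etanercept and saline and was used to sort the genes. Genes with at least 20 CPM in healthy liver nearly all passed the limit of 5 CPM, 3774 of 3780 between 20 and 100 CPM, 1234 of 1235 between 100 and 1000 CPM and 112 of 112 above. In these 3 groups fewer genes were called higher than lower. The shares were 13.4% higher and 16.1% lower in the first, 10.6% and 17.1% in the second, and 9.82% and 25.9% in the third, beside 18.3% and 19.2% over all genes tested. The median log2 folds were -0.04, -0.13 and -0.46. Total-read scaling gave lower medians of -0.46, -0.55 and -0.88 in the same order. Between 5 and 20 CPM in healthy liver 3527 of 3876 genes passed, with 17.2% higher and 23.7% lower under TMM. The genes that lead in healthy liver were thus lower in the etanercept library than in the saline library relative to genes of middle level. A change of scaling shifts all folds alike, apart from the pseudocount. The contrast between these groups is therefore nearly the same in either scaling, and the second scaling is no separate check of it.

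Genes with low levels in healthy liver were called higher more often, but few of them were measured. Between 1 and 5 CPM in healthy liver 1035 of 2802 genes passed the level limit, and 38.6% of these were higher and 19.3% lower with TMM. Total-read scaling turned this group to 24.0% higher and 31.7% lower. Under 1 CPM 251 of 4161 detected genes passed, with 54.2% higher and 9.56% lower. Of 10438 genes without a read in healthy liver 58 passed, with 39 higher and 5 lower. A gene of these groups passed only by standing above healthy in at least 1 of the compared libraries, so a high share of calls follows in part from the limit. The groups under 1 CPM in healthy liver took similar parts of both libraries. Genes not detected in healthy liver held 0.108% of saline and 0.151% of etanercept gene reads, and those up to 1 CPM 0.512% and 0.608%.

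**Figure D4:**
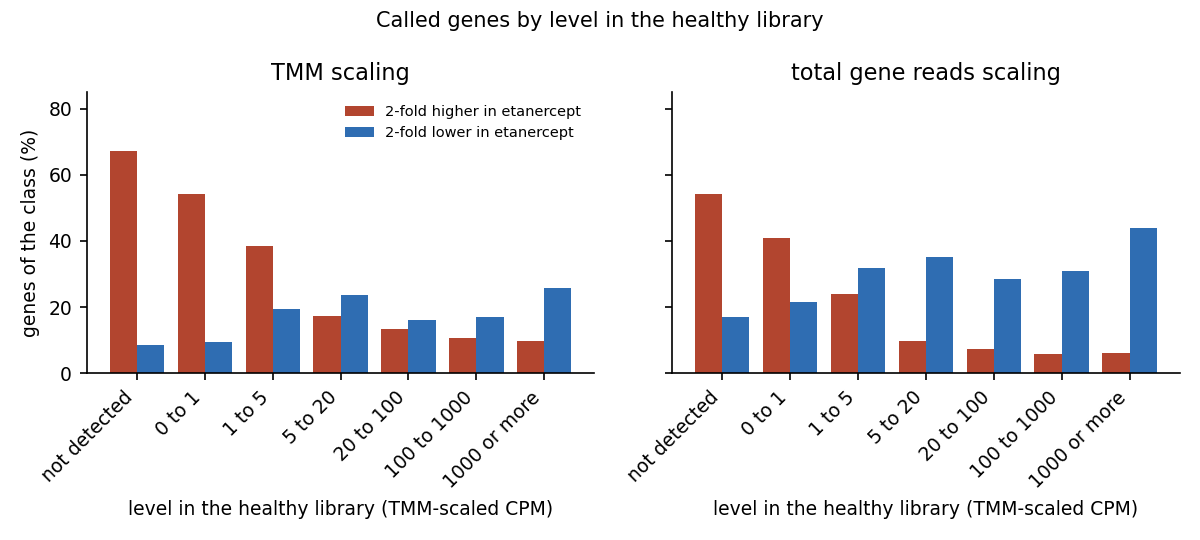
Share of genes (%) at least 2-fold higher (red) or lower (blue) in etanercept than in saline liver, by level in the healthy library in TMM-scaled CPM, with TMM scaling at left and total-read scaling at right. From 5 CPM upward blue bars exceed red bars in both panels. With TMM they stand at 23.7% against 17.2%, 16.1% against 13.4%, 17.1% against 10.6% and 25.9% against 9.82%. The classes under 5 CPM hold only genes that passed the level limit in a hepatectomy library.

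How many genes stood higher or lower depended on what the libraries were scaled to. Scaling by total gene reads shifted all log2 folds by -0.42 and gave 1097 higher (10.8%) and 3191 lower genes (31.4%) of 10152 tested. A scaling by all uniquely aligned reads was chosen after the data were seen. It counts the reads assigned to no gene as part of the library and shifts all log2 folds by -2.32. It gave 123 higher (1.35%) and 8285 lower genes (91.0%) of 9105 tested. All 123 were among the 1827 higher genes of the TMM scaling, and 1872 of the 8285 were among its 1915 lower genes. Of the first 100 genes ranked on the higher side 93 were still at least 2-fold higher in that scaling. Of the first 100 on the lower side 100 were lower. A scaling shifts every fold by the same amount, apart from the pseudocount. These overlaps, and the directions that follow, are thus set by the TMM folds and the level limit and are no separate check. The direction of the 4 named genes was the same in every scaling tried, with log2 folds under all uniquely aligned reads of 7.98 for ENSRNOG00000045015, 7.65 for ENSRNOG00000019914, -8.67 for ENSRNOG00000045589 and -8.06 for ENSRNOG00000050614.

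**Figure D5:**
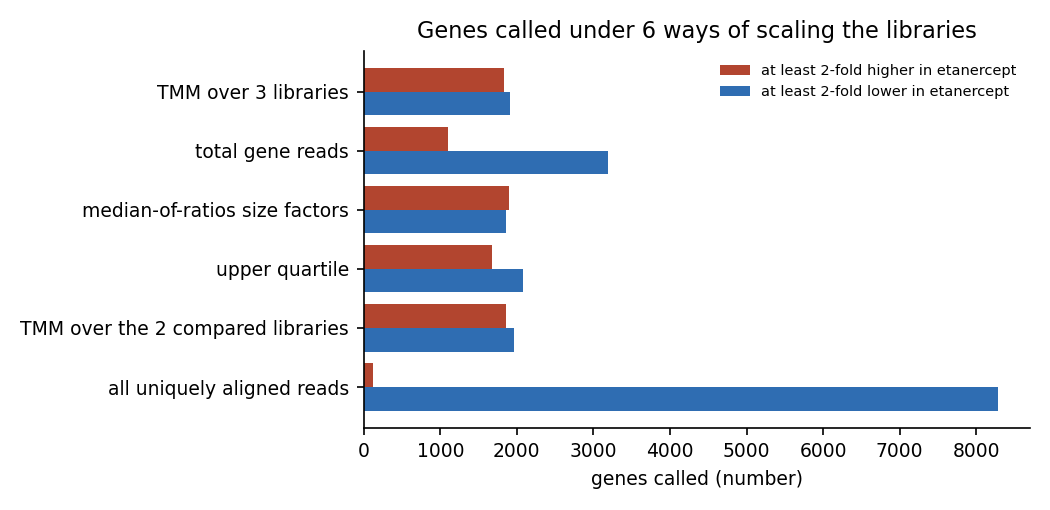
Number of genes at least 2-fold higher (red) or lower (blue) in the etanercept library under 6 ways of scaling the same counts, each with at least 5 CPM in the higher library. The 4 TMM, median-of-ratios and upper-quartile pairs of bars lie between 1676 and 2085 genes, total gene reads give 1097 higher and 3191 lower, and all uniquely aligned reads give 123 and 8285.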

How the data were processed

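RNA was isolated with a mirVana kit, depleted of ribosomal RNA with a RiboMinus kit and made into Ion Torrent libraries, per the labels' protocols. Per the submitters' processing notes, the tools included TopHat2 2.0.13 and HTSeq 0.6.1. With genome build, annotation release and strand setting not given in the sources used here, reads of overlapping or antisense genes may be mixed, and near-identical genes may be undercounted. The authors deposited unnormalized read counts, whole numbers for each gene identifier. The 5 summary rows that name no gene stayed out of library sizes. Reads assigned to no gene or to several were together 22.5% of uniquely aligned saline reads and 79.1% of uniquely aligned etanercept reads.

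Groups follow the labels, with 1 library each. Counts were scaled by TMM over 3 libraries (edgeR 4.0.16, R 4.3.3), with factors of 0.896 for healthy, 1.22 for saline and 0.912 for etanercept. Folds are ratios of scaled counts, each with a pseudocount of 0.5. Genes with at least 5 CPM in the higher library were tested, and a fold of 2 was called. Fold intervals are exact Clopper-Pearson intervals of the share of counts, level intervals exact Poisson intervals (scipy 1.17.1), both for counting error only. Genes are named by identifier, 2 per direction, by the counting bound nearest to no change among genes with at least 20 CPM; the leading gene of each library is described without its identifier. The fold and interval steps were tested on simulated Poisson counts in which few genes changed, equally in both directions. That simulation does not test TMM under a difference as broad as the one found here. Alternatives were other scalings (with DESeq2 1.42.0 size factors), level limits and pseudocounts, the bound in place of the fold, and leaving out the 20 genes with most reads. The 27 pathway and 10 cell type lists were not scored, since 0 identifiers matched a name. The comparison, rules and lists were chosen with earlier results of these data known.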

Additional observations from a re-analysis of the deposited data

Results flagged for a closer look

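Reads that the count tables assign to no single gene took a larger share of uniquely aligned reads in both hepatectomy libraries than in healthy liver. Of the uniquely aligned reads of the etanercept library, 77.4% were assigned to no gene (exact binomial interval 77.42% to 77.46%). The saline library stood at 21.7% and the healthy library at 19.9%. Reads shared by several genes were 1.69% for etanercept, 0.871% for saline and 0.729% for healthy liver. Each group is 1 library, so these differences were not tested, and gene counts do not show where the reads assigned to no gene lie.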

How the results depend on the processing

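The 1827 higher and 1915 lower genes changed by less than 1.5 times with median-of-ratios factors, upper-quartile scaling, TMM over the 2 compared libraries, pseudocounts of 0.1 and 2, and without the 20 genes with most reads. Total gene reads gave 1097 higher and 3191 lower, and all uniquely aligned reads, an alternative added after the data were seen, 123 and 8285. A limit of 20 CPM gave 1180 and 905, no limit beyond 1 read 3185 and 4893, and a limit of 1 CPM 3015 lower. Requiring a counting bound of 2-fold gave 949 and 939. Higher genes were 48.8% of all calls, 25.6% with total gene reads, 1.46% with uniquely aligned reads, 56.6% at 20 CPM and 39.4% with no limit. Of the higher genes 1097 (60.0%) and of the lower genes 1857 (97.0%) were called under all 5 scalings that use gene reads. A scaling moves all folds by the same amount, apart from the pseudocount. The 1097 is thus the higher number with total gene reads, and the 1857 is the lower number with median-of-ratios factors. These percentages do not show which side is firmer. The cause of the changes in these numbers was not tested beyond the scaling and limits themselves. The protein-coding alternative and the medians of gene lists were not run, because identifiers could not be matched to names or gene types. No paired analysis was possible because each group is 1 library. Depth limits single genes near 5 CPM, which is 16.2 saline and 16.6 etanercept counts.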
